A study of Mus musculus with 2 samples.

Results

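The genes described here are 9 transcription factors and cofactors tied to the fast or slow identity of skeletal muscle fibres: the homeodomain factors Six4 and Six5, their coactivators Eya1 and Eya4, the repressor Sox6, the T-box factor Tbx15, the nuclear factor Nfix, the TEAD cofactor Vgll2 and the homeodomain factor Prox1. They were chosen by name, not by any measured value, and are 9 of the 55536 named genes in the tables. Levels were measured by total RNA-seq in gastrocnemius, a calf muscle made mostly of fast fibres in the adult mouse. The animals were 10 day old female mice of the hybrid strain B6CASTF1/J. The series has 1 group of 2 libraries, replicate 1 and replicate 2, each from 300 ng of RNA and numbered in the labels as different females. No genotype, treatment or second age is compared. Whole muscle was used, so the values average over fibres and all other cells, and fewer cells of a type cannot be told apart from less RNA per cell.

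Fibre type is set by factors that switch whole groups of contractile genes on or off. Six4 and its relatives bind a DNA element called the MEF3 site and act with Eya proteins, which are coactivators with phosphatase activity; in mouse muscle this pair promotes the fast glycolytic programme. Sox6 binds and represses slow fibre genes in mouse fetal and fast fibres, Tbx15 is linked to glycolytic fibres in mice, and Nfix drives the switch from the embryonic to the fetal muscle programme and lowers slow myosin. Vgll2 binds TEAD factors and its loss in mice alters the mix of fibre types, whereas Prox1 is needed for slow fibre genes and is better known as the factor that specifies lymphatic endothelium.

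The libraries held 35925081 expected counts in replicate 1 and 39969380 in replicate 2, expected counts being read counts in which a read that fits several transcripts is divided among them by a model. Abundance is given as TPM, which corrects for length, is scaled to a fixed total per library and can be set side by side between genes. A gene was called detected at a TPM of 1 or more in both libraries. With 1 group, and 1 library on each side of any comparison between replicates, no test is possible: flipping the signs of 2 libraries cannot give a two-sided p below 0.5, and none is printed. The 7 of 7 muscle fibre markers detected summed to a TPM of 44667 in replicate 1 and 52024 in replicate 2, led by Acta1 and Ckm. The libraries stood apart in bone: the 6 bone markers summed to a TPM of 242 in replicate 1 and 2.54 in replicate 2, where Ibsp and Bglap had 0 counts. Among markers of other cell types, 6 of 6 fibroblast markers (led by Col1a1 and Col3a1, summed TPM 5538 in replicate 1 and 3492 in replicate 2) and 6 of 6 of smooth muscle and pericytes (Acta2 and Rgs5, 376 and 445) were detected. So were 4 of 6 adipocyte markers (Fabp4 and Adipoq, 160.5 and 124) and 3 of 6 erythroid markers (Hba-a1 and Hbb-bs, 1269.8 and 976), with Klf1 at 0 counts in replicate 2.

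Several of the 9 genes were measured as more than 1 transcript form, and the exons behind the largest such choices are shown first. All are from the GENCODE M21 transcripts on mm10. In the included form the cassette exon, an exon that is either kept or skipped whole, is in capitals with 15 bases of its neighbours in lower case, and the skipped form is the joined neighbours alone. The Nfix exon of 148 bases lies at chr8:84716141-84716288 on the minus strand and its length is not a multiple of 3, so keeping or skipping it shifts the reading frame after it.
Nfix 148-base exon included: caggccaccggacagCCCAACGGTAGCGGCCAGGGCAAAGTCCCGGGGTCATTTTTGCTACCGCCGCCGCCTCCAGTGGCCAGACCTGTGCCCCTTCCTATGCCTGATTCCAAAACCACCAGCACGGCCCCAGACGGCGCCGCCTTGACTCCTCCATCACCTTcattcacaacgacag
Nfix 148-base exon skipped: caggccaccggacagcattcacaacgacag
The Nfix exon of 123 bases lies upstream of it in the same gene, at chr8:84723728-84723850 on the minus strand, and its length keeps the frame.
Nfix 123-base exon included: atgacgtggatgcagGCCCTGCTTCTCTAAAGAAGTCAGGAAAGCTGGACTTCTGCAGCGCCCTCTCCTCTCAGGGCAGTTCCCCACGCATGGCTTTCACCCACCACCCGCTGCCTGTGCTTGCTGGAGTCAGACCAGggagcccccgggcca
Nfix 123-base exon skipped: atgacgtggatgcagggagcccccgggcca
The Eya4 exon of 69 bases, which also keeps the frame, lies at chr10:23171626-23171694 on the minus strand.
Eya4 69-base exon included: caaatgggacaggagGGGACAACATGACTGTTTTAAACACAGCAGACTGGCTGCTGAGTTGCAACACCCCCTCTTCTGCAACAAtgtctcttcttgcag
Eya4 69-base exon skipped: caaatgggacaggagtgtctcttcttgcag
The Sox6 exon of 123 bases lies at chr7:115579016-115579138 on the minus strand. The junction of the leading skipping form, Sox6-210, differs from the flanks of the including form and is printed as that transcript has it.
Sox6 123-base exon included: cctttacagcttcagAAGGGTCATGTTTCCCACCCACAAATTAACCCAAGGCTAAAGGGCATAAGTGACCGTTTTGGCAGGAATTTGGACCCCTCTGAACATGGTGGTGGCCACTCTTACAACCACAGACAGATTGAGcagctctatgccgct
Sox6 123-base exon skipped: cctttacagcttcagctctatgccgctcag

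Every one of the 9 genes was detected, where 52.3% of 22015 nuclear protein coding genes were. Their TPM summed to 423 in replicate 1 and 471 in replicate 2, and Nfix alone held 63.3% ± 0.902 of that sum (SD, n = 2). The highest gene stood 76.5-fold above the lowest in replicate 1 and 123-fold in replicate 2. Nfix, Tbx15, Sox6, Vgll2 and Eya4 lay above the median TPM of detected nuclear protein coding genes, which was 10.1 in replicate 1 and 8.57 in replicate 2, and Eya1, Six4, Prox1 and Six5 lay below it in both.

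**Figure D1:**
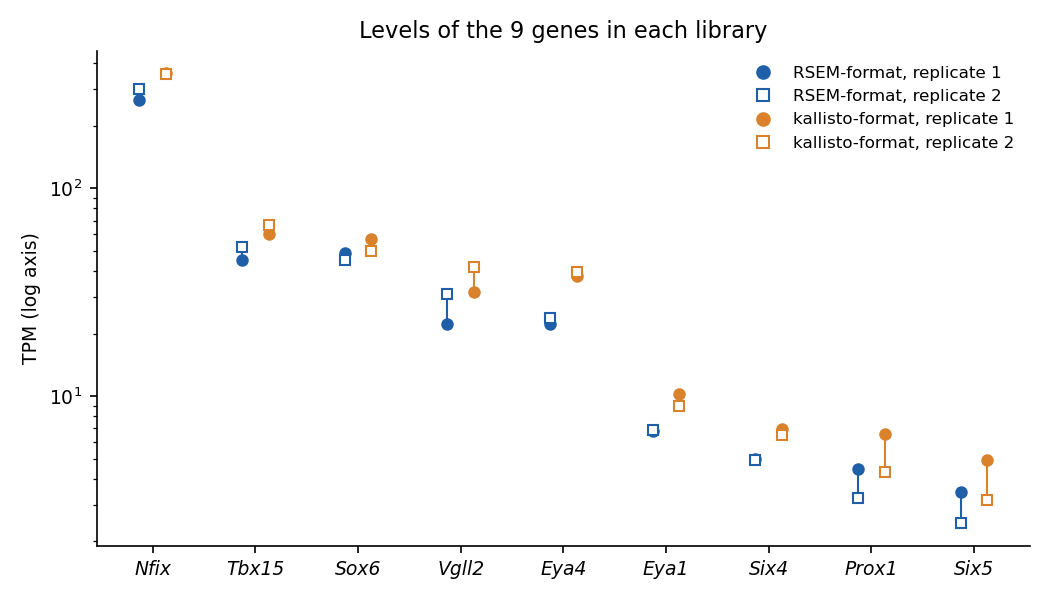
TPM of each of the 9 genes (log axis) in replicate 1 (filled circles) and replicate 2 (open squares), from the RSEM-format tables (blue) and the kallisto-format tables (orange); lines join the replicates. Nfix stands far above the rest at 265 and 301 in the RSEM-format tables, and Six5 is lowest at 3.46 and 2.45.

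Six4 (chromosome 12, 73099609 to 73113456) and Six5 (chromosome 7, 19094594 to 19098549) encode the DNA-binding partners of the Eya proteins. Six4 had a TPM of 4.99 in replicate 1 and 4.91 in replicate 2. Six5 had 3.46 and 2.45. Six4 was the higher in both libraries, with a log2 ratio of Six4 over Six5 of 0.77 ± 0.34 (SD, n = 2), and the libraries' values did not overlap between the genes. Six4 rested on 892 and 997 counts and Six5 on 284 and 229, the fewest of the 9. As CPM, counts scaled by the library's total over named genes, Six5 was 7.96 in replicate 1, with an exact binomial interval at 95% of 7.06 to 8.94. In replicate 2 it was 5.78, with 5.05 to 6.57. Such intervals cover counting error only. Of their relatives, Six2 had a TPM of 6.06 and 5.78, and Six3 and Six6 had 0 counts. Six4 was thus slightly lower than Six2 per length, at a log2 ratio of -0.26 ± 0.03, although it had more counts, 892 and 997 against 324 and 342, on a leading form of 6402 bases.

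Six5 has a strongly expressed neighbour. Dmpk, a muscle kinase gene whose human form carries the repeat expansion of myotonic dystrophy, ends 772 bases before Six5 on the same strand and had a TPM of 113 in replicate 1 and 105 in replicate 2. The level of Six5 was thus a small fraction of that of Dmpk in both libraries. Whether reads of Dmpk transcripts were counted to Six5 was not tested. The RefSeq window before Six5 (GRCm38.p6, chr7:19094294-19094593, plus strand) lies within the gap and is shown for that reason.
Six5 window: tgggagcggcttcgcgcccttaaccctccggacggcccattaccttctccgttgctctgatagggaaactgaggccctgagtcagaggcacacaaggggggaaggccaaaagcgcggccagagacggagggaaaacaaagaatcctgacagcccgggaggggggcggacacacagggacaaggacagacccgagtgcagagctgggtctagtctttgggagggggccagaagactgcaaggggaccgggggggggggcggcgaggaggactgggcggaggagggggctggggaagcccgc

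Eya1 (chromosome 1, 14168954 to 14310235) and Eya4 (chromosome 10, 23102963 to 23350786) are coactivators that Six4 and its relatives bring to DNA. Eya4 had a TPM of 22.2 in replicate 1 and 23.7 in replicate 2. Eya1 had 6.77 and 6.88. Eya4 was 3.36-fold above Eya1, a log2 ratio of 1.75 ± 0.05 (SD, n = 2), with the same order in both libraries. All 4 Eya genes were detected, where 52.3% of nuclear protein coding genes were. Eya3 had a TPM of 7.42 and 6.34 and Eya2, the lowest, 2.37 and 1.76. Eya4 exceeded Eya3 by a log2 ratio of 1.74 ± 0.23 and Eya2 by 3.49 ± 0.37. Eya1 and Eya3 were not told apart in the RSEM-format TPM, at a log2 ratio of -0.01 ± 0.18 that changed sign between libraries, whereas Eya1 was the lower in both libraries in the kallisto-format tables, at -0.57 ± 0.02. Of the Dach corepressors, which join the same complexes, Dach1 was detected at 5.16 and 4.35, and Dach2 was at 0.21 and 0.15, so that 1 of 2 was detected.

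Sox6 (chromosome 7, 115470872 to 116038796), the repressor of slow fibre genes, had a TPM of 48.8 in replicate 1 and 45.4 in replicate 2. Its SoxD relatives were far lower: Sox13 had 7.02 and 5.47, and Sox5 had 1.12 and 1.03. The log2 ratio of Sox6 was 2.93 ± 0.18 over Sox13 and 5.45 ± 0.01 over Sox5 (SD, n = 2), so 3 of 3 SoxD genes were detected with Sox6 well above the others. Sox5 and Sox6 also act together in cartilage. The 7 cartilage markers summed to a TPM of 27.8 in replicate 1 and 21.9 in replicate 2, with 3 of 7 detected, led by Col2a1 and Comp, and Matn1 at 0 counts in replicate 2. The part of cartilage in the Sox6 level was not tested. An antisense gene, Sox6os, overlaps Sox6 and had a TPM of 2.22 ± 0.01 on 20 and 23 counts, and another, Gm45025, had 0 counts. The libraries were stranded, per the labels, but no source used here says whether counting used the strand, and reads of such overlapping pairs could be mixed.

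Tbx15 (chromosome 3, 99240381 to 99354259) was near Sox6 in TPM summed over all forms, at 45.0 in replicate 1 and 52.2 in replicate 2. The 2 genes were not told apart in the RSEM-format TPM, where the log2 ratio of Tbx15 over Sox6 was -0.12 in replicate 1 and 0.20 in replicate 2. In the kallisto-format tables Tbx15 was the higher in both libraries, at 0.25 ± 0.24. On counts, which are not corrected for length, Tbx15 was the lower, at -0.24 ± 0.18. The Sox6 TPM included noncoding forms, with a mean share of 32.7%, and short ones. Sox6-207, of 331 bases, had a TPM of 7.46 and 7.67 on 48.8 and 57.1 counts. The leading form Sox6-210 had 19.0 in both libraries, against 44.6 and 51.6 for Tbx15-201, so the leading forms were not level. Within its own subfamily Tbx15 dominated: Tbx1 had 2.44 and 1.80, and Tbx18 had 1.64 and 1.00. Its log2 ratio was 4.53 ± 0.46 over Tbx1 and 5.24 ± 0.66 over Tbx18 (SD, n = 2). Detected were 3 of 6 genes of this subfamily, Tbx20 and Tbx22 had 0 counts, and Tbx10 had 2 counts in replicate 1 and 1 in replicate 2.

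Nfix (chromosome 8, 84699876 to 84800344), the factor of the fetal programme, was the most abundant of the 9 genes at a TPM of 265 in replicate 1 and 301 in replicate 2. It ranked 192 among nuclear protein coding genes, above 98.3% of those detected. Its relatives Nfic, Nfib and Nfia, which bind the same element, were all detected too, 4 of 4 genes of the family. Nfic had 147 and 146, Nfib 66.5 and 59.9, and Nfia 54.8 and 41.9. Nfix exceeded Nfic by a log2 ratio of 0.95 ± 0.14, Nfib by 2.16 ± 0.24 and Nfia by 2.56 ± 0.40 (SD, n = 2). The lead over Nfic was smaller in the kallisto-format tables, at 0.44 ± 0.04, and on counts, at 0.37 ± 0.08. That over Nfib was 1.89 ± 0.05 and 0.97 ± 0.14, and that over Nfia 2.43 ± 0.37 and 2.24 ± 0.28. The order Nfix, Nfic, Nfib, Nfia held in both libraries. Lyl1 and G430095P16Rik overlap Nfix on the opposite strand at a TPM of 2.04 ± 0.50 and 1.00 ± 0.35, and Trmt1 lies 67 bases beyond its end at 18.8 ± 0.90.

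Vgll2 (chromosome 10, 52022502 to 52028471), the cofactor, had a TPM of 22.3 in replicate 1 and 31.1 in replicate 2. It was not told apart from Eya4 at this spread, a log2 ratio of Vgll2 over Eya4 of 0.20 ± 0.28 (SD, n = 2). Vgll4 had 14.1 and 11.5, Vgll3 had 7.59 and 5.49, and Vgll1 had 0 counts, so 3 of 4 Vgll genes were detected. Vgll2 exceeded Vgll4 by a log2 ratio of 1.05 ± 0.55 and Vgll3 by 2.03 ± 0.67, the last of which had no called direction on counts, at 0.43 ± 0.51. All 4 TEAD genes, the DNA-binding partners, were detected. Tead1 led them at 60.0 and 56.4, followed by Tead2 at 11.5 and 8.23, Tead3 at 6.56 and 4.71 and Tead4 at 5.83 and 4.87.

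Prox1 (chromosome 1, 190118035 to 190170714), the factor of slow fibres, had a TPM of 4.48 in replicate 1 and 3.22 in replicate 2. Sox6, which represses the slow genes that Prox1 is needed for, was 12.4-fold higher in TPM summed over all forms. The log2 ratio of Sox6 over Prox1 was 3.63 ± 0.26 (SD, n = 2), and 2.97 ± 0.20 on counts. The size of the ratio depended on the short and noncoding Sox6 forms. The leading form Sox6-210 had a TPM of 19.0 in both libraries, against 3.04 and 2.63 for Prox1-202. Prox2 had 1.27 and 0.79 and did not pass the detection limit in both libraries, so 1 of 2 Prox genes was detected. Prox1 is also made by lymphatic endothelium, whose 6 markers summed to a TPM of 26.0 in replicate 1 and 21.6 in replicate 2. Of these markers 5 of 6 were detected, Pdpn and Lyve1 led, none was at 0, and the defining receptor gene Flt4 had 2.59 and 2.01. The share of Prox1 that came from lymphatic vessels was not tested. Prox1 is also linked to satellite cells, the muscle stem cells, of whose markers 6 of 7 were detected at a summed TPM of 46.2 and 37.2, led by Cdh15 and Heyl. The antisense genes Prox1os and Gm28172 overlap Prox1 at 0.14 ± 0.07 and 0.04 ± 0.06.

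**Figure D2:**
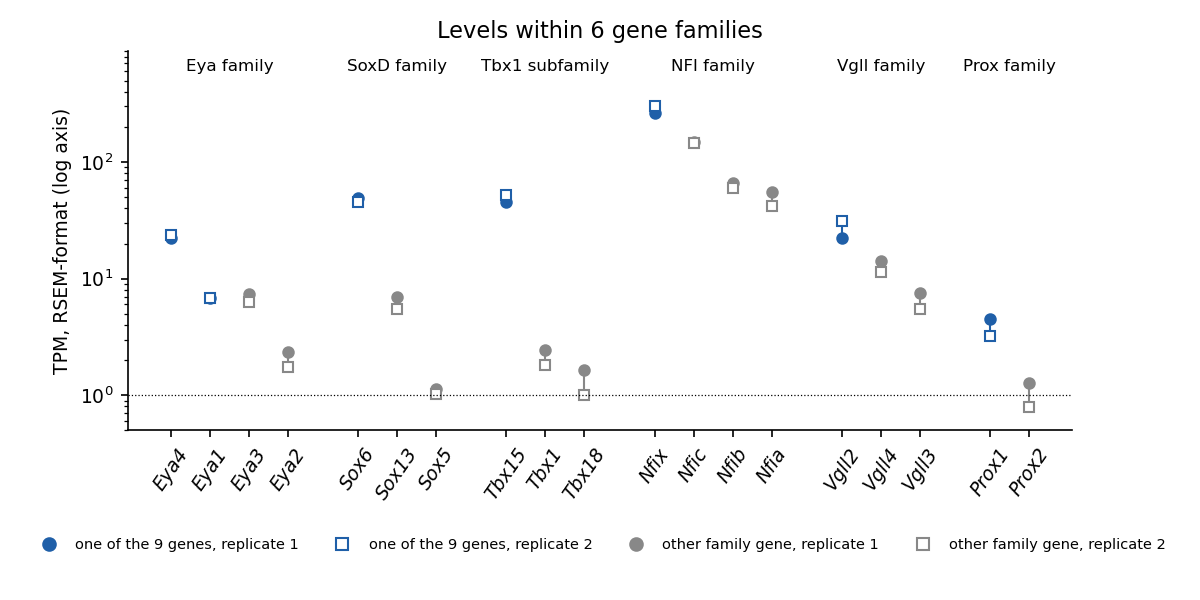
TPM (log axis, RSEM-format tables) of detected genes in 6 families in replicate 1 (filled circles) and replicate 2 (open squares), with the 9 genes in blue, other family genes in grey, Prox2 added, and the detection limit of 1 dotted. Eya4, Sox6, Tbx15, Nfix, Vgll2 and Prox1 each lead their family in both libraries, while Eya1 lies level with Eya3 in these tables.

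Ordered by mean TPM, the 9 genes were Nfix at 283, Tbx15 at 48.6, Sox6 at 47.1, Vgll2 at 26.7, Eya4 at 22.9, Eya1 at 6.82, Six4 at 4.95, Prox1 at 3.85 and Six5 at 2.96. A pair was called apart where both libraries gave the same sign and the mean log2 ratio exceeded 1 SD. Of the 8 neighbouring steps 6 were apart, and Tbx15 with Sox6 and Vgll2 with Eya4 were not. As the order came from the same 2 libraries, a step apart shows that they agreed and is no separate test of the order. The step from Six4 to Prox1 was narrow, at a log2 ratio of 0.38 ± 0.32, and was not apart in the kallisto-format tables, where Tbx15 and Sox6 were. Of 18 pairs set within families or between roles, 16 had a called direction. The pairs were chosen with earlier results of these data known, so this count is likewise no separate test.

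Genes on both sides of the fibre type divide were present, and whether the 9 factors act on them was not tested. All 13 fast fibre genes were detected, with a summed TPM of 75936 in replicate 1 and 89832 in replicate 2 and led by Mylpf and Myl1, fast myosin light chains. All 10 slow fibre genes were detected, at 1415 and 1351, led by Myl2 and Myh7, the slow light and heavy chain. The 5 embryonic and perinatal genes, all detected, summed to 2736 and 3446 and were led by cardiac actin Actc1 and perinatal myosin Myh8. The 9 regulators had a median TPM of 22.9 ± 1.04, against 5547 for the fast, 127 for the slow and 38.5 for the embryonic and perinatal list. The ranges overlapped: Nfix at 283 exceeded Myh7 at 224, and Myh7b at 1.05 lay below all 9.

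Between the libraries, ratios were taken as log2 of replicate 1 over replicate 2 on counts scaled by TMM, a method that assumes most genes are equal. None of the 9 genes reached a 2-fold difference, where 1.02% of 11760 genes whose counts averaged 100 or more did. At a limit of 1.5-fold Vgll2 was the 1 gene past it, where 4.45% of genes were. That call depended on the scaling: with library totals Vgll2 was at a log2 ratio of -0.54, under the limit, and with spike-in totals at -0.39, where Six5 at 0.61 was past it instead. Vgll2 was 1.72-fold lower in replicate 1, at a log2 ratio of -0.78, and 98.0% of genes had a smaller difference. The other 8 genes lay within -0.49 for Tbx15 and 0.22 for Six5, inside the central 95% of genes, from -0.56 to 0.59. The biological coefficient of variation over 16790 genes was 0.191, which gives a log2 ratio an SD of 0.39. Nfix was at -0.34, Eya4 at -0.41, Six4 at -0.25, Sox6 at -0.23, Eya1 at -0.21 and Prox1 at 0.06.

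Of the 9 genes 7 were lower in replicate 1, where 62.7% of genes were, the median of all genes being -0.08. The direction depended on the scaling. Spike-in totals shift every gene by 0.39 and library totals by 0.24 on the log2 scale, and with spike-in scaling 6 of 9 were higher in replicate 1, where 90.2% of genes were. Vgll2, Tbx15 and Eya4 were lower in replicate 1 under each of TMM, DESeq2, library total and spike-in scaling, with Eya4 at only -0.02 under the spike-ins. The fast fibre genes lay on the same side as these 3 under TMM, with 13 of 13 lower in replicate 1 and a median of -0.52, although under the spike-ins 3 of 13 were higher there. The slow fibre genes had a median of -0.17, with 9 of 10 lower under TMM and 0 of 10 under the spike-ins. Actc1 was lower in replicate 1 at -1.19, and the other 4 embryonic and perinatal genes lay from 0.03 to 0.41. The bone markers moved the other way, all 6 at least 2-fold higher in replicate 1. Of other markers, 3 of 6 adipocyte genes had counts enough for a ratio, with a median of 0.91. The 6 fibroblast genes had a median of 0.05 and ranged from -0.13 to 0.63, the highest being Col1a1. Their part in the ratios of the 9 genes was not tested.

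**Figure D3:**
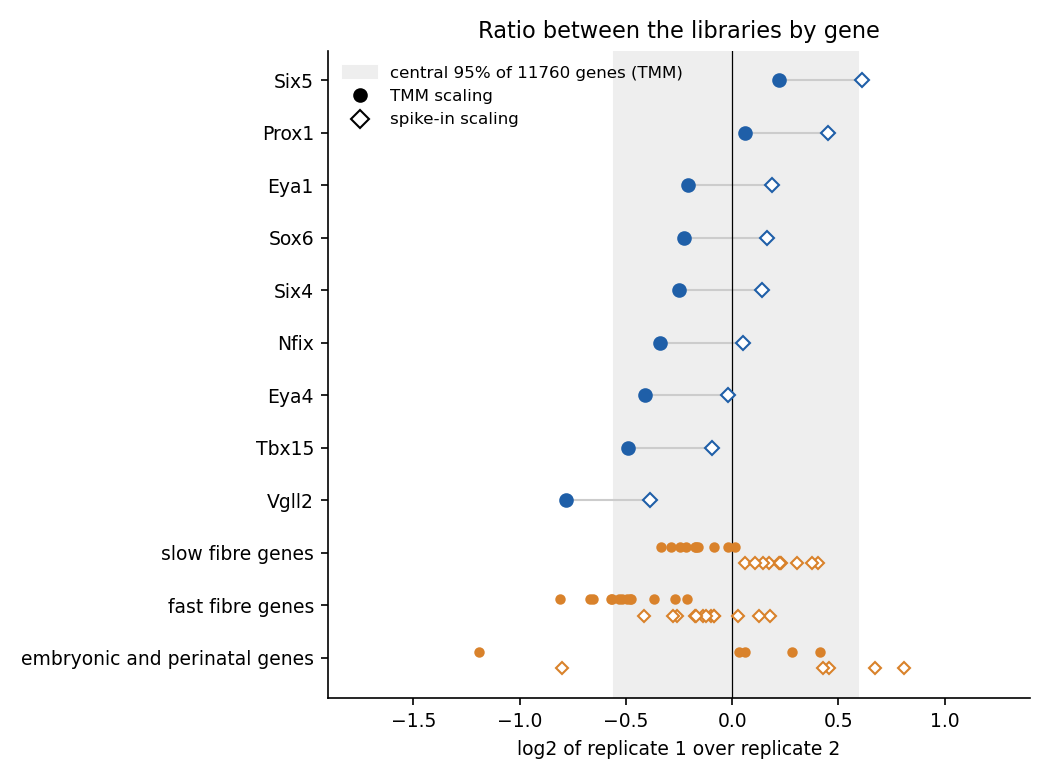
Log2 ratio of replicate 1 over replicate 2 for the 9 genes (blue) and for 3 lists of contractile genes (orange), with TMM scaling (filled circles) and spike-in scaling (open diamonds); the grey band is the central 95% of 11760 genes under TMM. Vgll2 lies left of the band at -0.78 and the spike-in values lie 0.39 to the right of the TMM values.

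The authors' intervals of TPM did not overlap between the libraries for 5 of the 9 genes, Six5, Tbx15, Nfix, Vgll2 and Prox1, where 30.1% of 11514 detected nuclear protein coding genes did not overlap. For Nfix the interval was 251 to 268 in replicate 1 and 286 to 304 in replicate 2. For Vgll2 it was 20.3 to 23.3 and 28.9 to 32.2. These intervals cover the reads of 1 library and not the spread between animals. In the kallisto-format tables Nfix was near equal, at 358 in replicate 1 and 355 in replicate 2, while Vgll2 had 31.6 and 41.8. Nfix-208, a noncoding form of 234 bases, had 18.4 and 38.2 in the RSEM-format tables and 0 in the kallisto-format tables. Its part in the Nfix difference was not tested.

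The deposited kallisto-format tables gave a second estimate from the same reads. None of the 9 genes differed 2-fold between the formats in both libraries, where 6.41% of 12144 genes did. Every one of the 9 was lower in the RSEM-format tables, as the median gene was, at a log2 ratio of RSEM-format over kallisto-format of -0.54. Sox6 differed least, at -0.18 ± 0.06, with 48.8 and 45.4 against 56.7 and 49.9. Eya4 differed most, at -0.75 ± 0.02, with 22.2 and 23.7 against 37.7 and 39.5.

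Transcript forms were compared as shares of the gene's TPM. A form held at least 50% of the TPM in 6 of 9 genes: all of it in Six5, which has 1 annotated form, 98.9% ± 0.117 for Tbx15-201, 92.9% ± 2.49 for Six4-201, 82.7% ± 2.15 for Vgll2-202, 74.8% ± 9.77 for Prox1-202 and 61.7% ± 4.13 for Eya4-202 (SD, n = 2). The remaining genes Nfix, Sox6 and Eya1 were split among forms. The leading form differed between the table formats in 1 of the 8 genes with several forms, Eya1, where 24.6% of 10516 such detected genes differed.

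The TPM of Nfix was divided mostly between forms annotated with 2 start regions and with a long or a short last exon. Transcript ends themselves were not measured. Nfix-204, the form with a last exon of 3966 bases, held 44.0% of TPM in replicate 1 and 39.6% in replicate 2. Nfix-201, which starts upstream and ends in a last exon of 64 bases, held 39.6% and 40.1%. These forms were near equal in TPM, although Nfix-204 took 78.0% and 76.4% of the counts because it is 5476 bases long against 1403. Forms from the upstream region, at 84800344 to 84800024, summed to 45.6% ± 0.261 and forms from the downstream region, at 84774369 to 84773396, to 43.3% ± 3.63, and in the kallisto-format tables to 50.4% ± 0.986 and 49.4% ± 0.744. The third form by TPM, Nfix-208, is a noncoding piece of 234 bases that held 6.96% and 12.7% in the RSEM-format tables and 0 in the kallisto-format tables.

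The Nfix exon of 148 bases was kept in 48.2% of the TPM of forms that span it in replicate 1 and 45.8% in replicate 2. The kallisto-format values were 47.1% and 46.9%, so both formats gave a near even division between the reading frames. The exon of 123 bases was kept in 54.6% and 52.4%, but in 73.1% and 72.1% in the kallisto-format tables. Those formats disagreed on Nfix-202, which keeps this exon and skips the other, at 5.80% ± 0.09 of TPM in the RSEM-format tables and 25.6% ± 0.499 in the kallisto-format tables. In the annotation the exon of 148 bases occurs in Nfix-204 and Nfix-205, and Nfix-205 was at 0, so its inclusion and the long last exon cannot be told apart here. The downstream start is also that of Nfix-203, which skips the exon, ends in a last exon of 52 bases and held 1.47% ± 0.543 of TPM.

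Eya4 TPM lay mostly in forms annotated from the start region at 23350786 to 23349887. They held 94.0% ± 1.44 in the RSEM-format tables and 81.7% ± 1.17 in the kallisto-format tables. Eya4-202, which skips the exon of 69 bases, held 58.7% in replicate 1 and 64.6% in replicate 2, and Eya4-206, which keeps it, held 25.7% and 26.9%. The third form, Eya4-208, held 8.55% and 3.51%. Inclusion of the exon was 27.1% and 27.5%, against 33.4% and 30.8% in the kallisto-format tables, so skipping prevailed in both libraries and formats. Eya1-201 held 47.6% and 38.5%, Eya1-209 26.8% and 24.0% and Eya1-207 10.9% and 12.2%. In the kallisto-format tables Eya1-209 led with 33.8% ± 4.21 against 21.5% ± 10.1 for Eya1-201, on 538 and 583 RSEM-format counts in all. The main Eya1 start regions kept their order in both formats, at 53.7% ± 3.56 upstream and 43.2% ± 3.80 downstream in the RSEM-format tables and 59.0% ± 4.47 and 37.6% ± 4.47 in the kallisto-format tables.

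**Figure D4:**
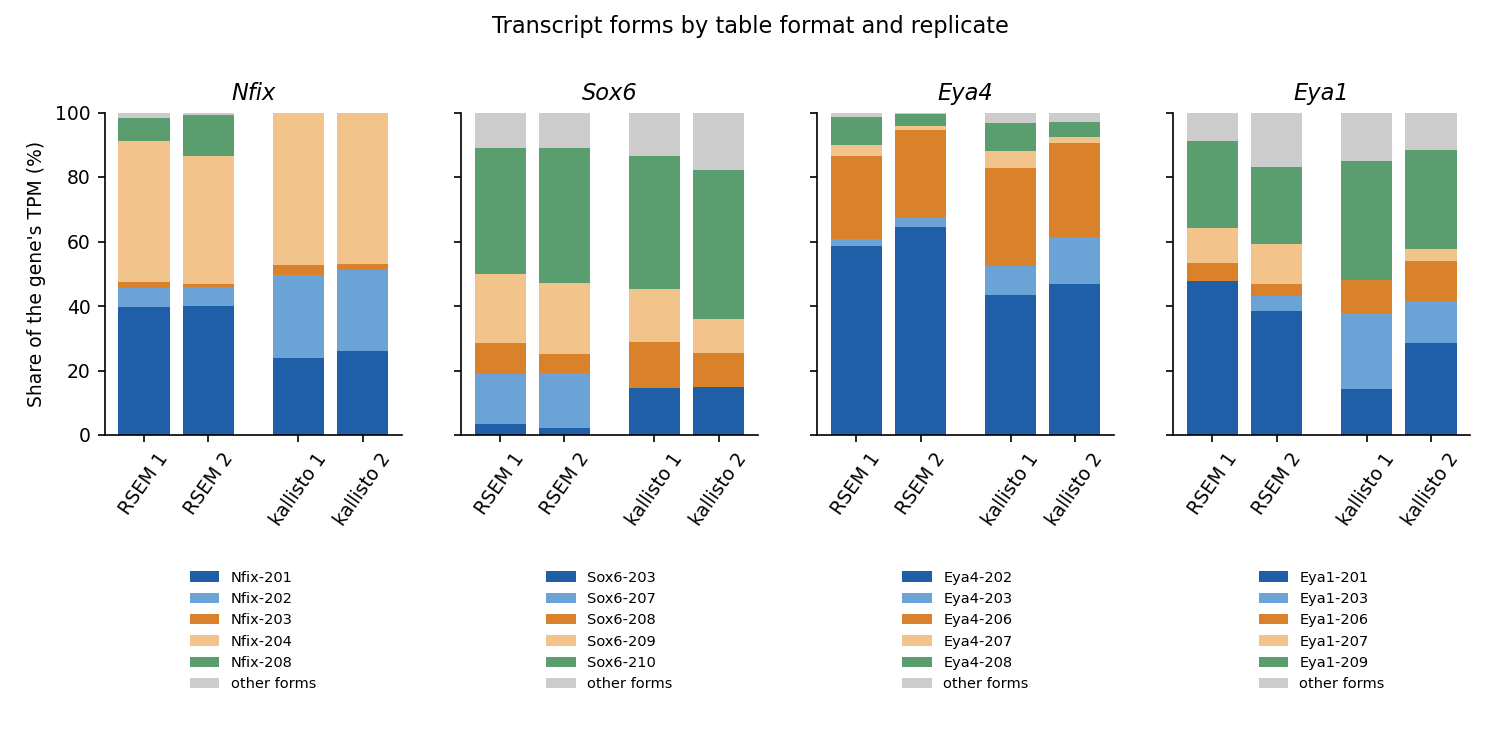
Share of the gene's TPM (%) held by the 5 leading forms of Nfix, Sox6, Eya4 and Eya1 and by all other forms (grey), for replicates 1 and 2 in the RSEM-format and kallisto-format tables. Nfix-204 holds 40 to 47% in every bar, while Nfix-202 is wider and Nfix-208 absent in the kallisto-format bars.

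Sox6 was led by Sox6-210, a form of 8668 bases that starts at 116031047, with 39.0% in replicate 1 and 41.9% in replicate 2 and 81.4% and 84.1% of the counts. Sox6-209, a retained intron form, held 21.6% and 21.8% in the RSEM-format tables and 16.3% and 10.5% in the kallisto-format tables. Sox6-207, annotated at 331 bases, held 15.3% and 16.9% in the RSEM-format tables and 0 in the kallisto-format tables. Sox6-207 held 0.863% and 0.918% of the counts, so its TPM share rested on few reads. The start region at 115846151 to 115846105 held 3.91% ± 1.11, and 16.0% ± 0.01 in the kallisto-format tables. The annotated start at 115995086 was at 0 in both formats. The exon of 123 bases was kept in 5.30% and 3.49% of the TPM of forms that span it, against 17.9% and 17.1% in the kallisto-format tables. Skipping prevailed in both formats, while the level of inclusion depended on the format.

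**Figure D5:**
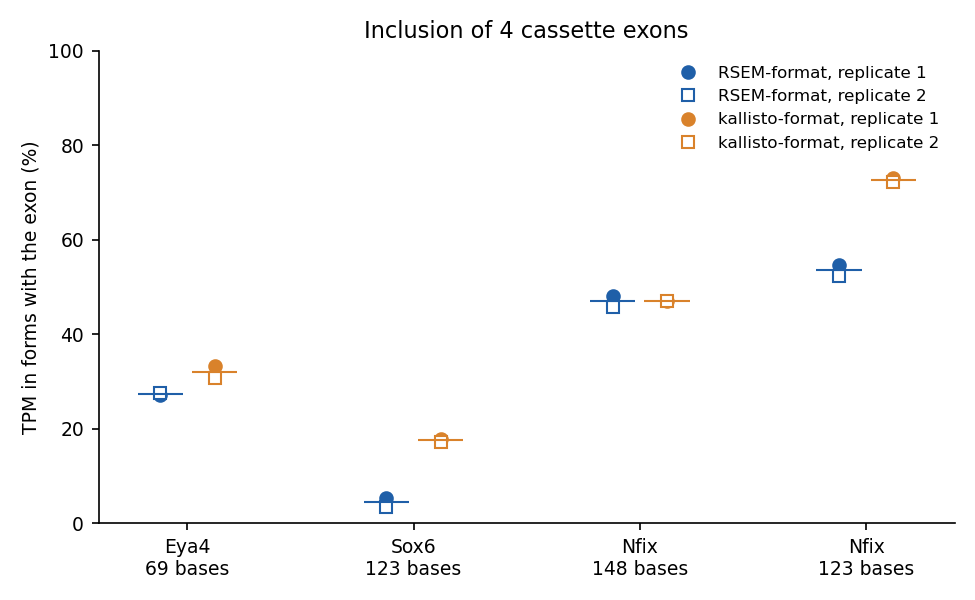
Share of TPM in forms that keep each of 4 cassette exons (%), among forms that span it, in replicate 1 (filled circles) and replicate 2 (open squares) from the RSEM-format (blue) and kallisto-format (orange) tables; bars are means. The Nfix exon of 148 bases lies at 47.0% in both formats, and the Nfix and Sox6 exons of 123 bases differ between them.

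The promoters were searched for elements that the members' own protein classes are known to bind, on both strands: TCAGGTT for the MEF3 site of Six4 and its relatives, AACAAT for Sox, AGGTGT for T-box, CATTCC for the M-CAT element of TEAD, and the NFI palindrome. RefSeq windows (GRCm38.p6) of 250 bases before to 50 after a start matched 7 of the 9 genes, Eya1 and Tbx15 having none, and gave 18 windows. They did not cover every start. None lay at the upstream Nfix start region, with 45.6% ± 0.261 of TPM. The Sox6 start region at 116034513 to 116033602, with 29.5% ± 2.42, had none either. The MEF3 letters were in 2 of 18 windows and in 4.07% of all 32851 windows. The Sox letters were in 1 of 18 and 10.7%, the T-box letters in 2 of 18 and 13.7%, the M-CAT letters in 2 of 18 and 14.7%, and the NFI palindrome in 0 of 18 and 0.0365%. Matches fell in windows of Six4 and Sox6. The MEF3 and Sox matches of Sox6 lay in the window at the start of Sox6-205, which held 0.205% ± 0.290 of Sox6 TPM. The Six4 match to MEF3, tcaggtt on the minus strand of the window, lies at chr12:73113336-73113342, inside the first exon of Six4-201. Matches to letters describe the sequence and are not sites.

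The windows of 2 Sox6 starts are shown since the TPM shares of their forms differed. The first is at the start of the leading form and the second in the start region at 115846151 to 115846105. Both are on the minus strand of chromosome 7, at chr7:116030998-116031297 and chr7:115846091-115846390, and capitals mark the match, a T-box element on the opposite strand in the first and an M-CAT core in the second.
Sox6 window of the leading start: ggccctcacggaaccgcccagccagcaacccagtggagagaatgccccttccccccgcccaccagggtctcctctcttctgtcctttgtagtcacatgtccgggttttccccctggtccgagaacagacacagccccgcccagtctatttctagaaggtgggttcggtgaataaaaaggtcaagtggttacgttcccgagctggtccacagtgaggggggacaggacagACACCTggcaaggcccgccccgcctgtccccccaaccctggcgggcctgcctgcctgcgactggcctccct
Sox6 window of the downstream start: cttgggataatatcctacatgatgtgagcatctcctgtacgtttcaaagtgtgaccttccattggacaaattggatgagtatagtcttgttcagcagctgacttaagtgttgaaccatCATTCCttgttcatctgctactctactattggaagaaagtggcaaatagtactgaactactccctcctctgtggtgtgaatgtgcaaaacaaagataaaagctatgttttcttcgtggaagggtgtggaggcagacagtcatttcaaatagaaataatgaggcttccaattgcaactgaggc
The window of the leading start has a GC content of 63.3% and that of the downstream start 41.0%.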

How the data were processed

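Total RNA libraries of gastrocnemius were ribosomal RNA reduced and stranded, with ERCC spike-ins, per the labels. The build was mm10 with GENCODE M21, per the deposited text files; no source used here names the programs or versions, and the tables are named after their columns, RSEM-format or kallisto-format. The deposited tables give expected or estimated counts, TPM scaled by effective length with spike-ins included, the percent of a gene's abundance per transcript, and bounds of TPM intervals (a signal column whose level is not stated), per the file headers. Each library has 81881 gene rows. Rows naming no gene held 1.38e-05% and 5.00e-06% of counts and were left out. Spike-ins took 0.720% and 0.798%. A count of 0 allows up to 3 counts, 0.0841 and 0.0757 CPM.

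The 2 libraries carry 1 donor identifier and separate biosamples, and their SD measures the spread between these samples. Kallisto-format values were summed per gene. Expected counts were rounded, scaled by TMM (prior count 0.5, edgeR 4.0.16, R 4.3.3), and the dispersion was fitted over genes averaging 10 counts or more; this step was tested on simulated data. DESeq2 1.42.0 gave alternative size factors. Format ratios used a pseudocount of 0.01. Starts within 2000 bases formed a region. Shares, exon inclusion and motifs were computed with Python 3.11.15, numpy 2.4.6 and pandas 2.3.3, and figures with matplotlib 3.10.9. Protein sequences were not used here.

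The genes, lists and pairs were chosen with earlier results of these data known. Named were the 9 genes, detected genes of their families, the leading 2 of each other list with its genes at 0, overlapping or adjacent genes, and the 3 leading transcripts of each gene. Single genes of the lists may be left out and are not reported here. Transcripts outside the leading 3, Flt4, Tbx10, Dach2, Prox2 and Myh7b were named after their values were seen, and the cassette exons and start regions were added to the planned measures.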

Additional observations from a re-analysis of the deposited data

How the results depend on the processing

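No paired analysis was possible because the series has 1 group. The detection of all 9 genes held at a limit of 0.5 and in the kallisto-format tables; at a limit of 5, 6 passed, Six4, Prox1 and Six5 falling out. The median TPM of 22.9 became 36.7 in the kallisto-format tables and 49.9 when rescaled over nuclear protein coding genes, and was 22.2 to 23.7 with each replicate left out. Called pairs numbered 16, against 18 with kallisto-format TPM and 17 with expected counts; the direction of Six4 over Six2 was the 1 that reversed, to 1.502 on counts, where length is not corrected. Vgll2 over Vgll3 lost its call on counts, and Eya1 over Eya3 and Tbx15 over Sox6 gained one in both alternatives, Tbx15 over Sox6 in opposite directions. No gene passed 2-fold between replicates under the other scalings or a prior count of 2, and 1 did at 1.5-fold, Vgll2 under TMM. Over all genes, 120 passed 2-fold, against 7452 with no filter, 692 from a mean count of 20, 189 with library totals, 286 with spike-ins and 183 with kallisto-format counts. A form held at least 50% of TPM in 5 genes in the kallisto-format tables. No gene passed 2-fold between formats at a pseudocount of 0.1 or 1. Results for single genes, pairs, forms and exons moved by no more than their spread in 138 comparisons, by more in 62, and 1 reversed. The 138 include every value with 1 replicate left out, which lies within the SD of 2 libraries by construction. That count therefore does not measure how stable the results are. Six5 had the fewest counts of the 9 genes.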
